A study of Homo sapiens with 6 samples.

Results

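The genes described here are 36 interferon response genes outside the IFIT family, followed in BL-2 cells, an established human Burkitt lymphoma line, untreated and 6 h into stimulation by lipopolysaccharide (LPS), an outer membrane molecule of Gram-negative bacteria. Each gene was represented by the probe set that the platform annotation gives exactly 1 gene symbol and that had the highest mean over all 6 arrays. In this way 35 of the 36 genes were measured, out of 19775 genes in all. STAT2, the transcription factor of the interferon receptor pathway, had no such probe set and was not analysed here. Total RNA of 3 untreated control samples and 3 LPS samples was hybridised, each to its own Affymetrix array. Both groups are the same cell line with no genetic change named, and the labels do not say that the samples of a group came from separate cultures. The p-values therefore reflect only how far these samples differ among themselves, and part of that may be technical. Values are on the log2 scale, with a base inferred from their range, and each difference is LPS minus control.

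Interferons are secreted signals of infection. Type I interferons bind a receptor whose kinases JAK1 and TYK2 activate STAT proteins, and these join IRF9 in a complex that binds the interferon-stimulated response element in promoters. The genes switched on in this way encode sensors of viral nucleic acid, enzymes that block viral RNA and membrane proteins that hinder entry or release. In myeloid cells LPS can start this programme through TLR4, the adaptor TICAM1 and interferon beta. Many of the genes are also read at a basal level in B cells.

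The core of the response element, GAAA, 2 bases of any kind and GAAA again, was searched on both strands of the RefSeq promoter table (GRCh38.p14), which holds 250 bases before and 50 bases after each listed start, to show what the genes share in sequence. Of the 35 measured genes 28 matched the table, with 39 promoters, and 23 of these promoters (59.0%) held the core, against 3.57% of all 35116 promoters of the same length. TTCNNNGAA, a motif that STAT dimers bind and that reads the same on both strands, was in 28.2% of the genes' promoters and 7.66% of all promoters. Some promoters of a gene overlap, so they are not independent. OAS2, TRIM22, IFITM2, MX2, OASL, USP18 and GBP2 had no entry. Shown are the genes with an unadjusted p under 0.05 between LPS and control whose core lies wholly before the start, each as a window of up to 25 bases on either side of the core nearest the start, with every core that lies within the window in capitals. IFITM3 has a pair of them. They are written 5′ to 3′ on the gene's strand, first 6 genes with higher and then 3 with lower values after LPS. Where the capitals read TTTC, the core is on the opposite strand.

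IFI44 (chr1:78649746-78649805, plus strand): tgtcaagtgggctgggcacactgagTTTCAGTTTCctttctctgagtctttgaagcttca
IFIH1 (chr2:162318685-162318730, minus strand): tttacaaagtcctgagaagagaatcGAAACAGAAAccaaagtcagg
DDX60 (chr4:168318771-168318830, minus strand): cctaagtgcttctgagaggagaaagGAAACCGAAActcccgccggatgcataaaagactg
PARP14 (chr3:122680785-122680838, plus strand): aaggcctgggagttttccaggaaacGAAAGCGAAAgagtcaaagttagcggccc
MX1 (chr21:41431829-41431888, plus strand): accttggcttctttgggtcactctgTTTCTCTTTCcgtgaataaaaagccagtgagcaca
EPSTI1 (chr13:42992257-42992316, minus strand): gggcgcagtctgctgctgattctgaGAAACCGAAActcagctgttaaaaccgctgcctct
IFITM1 (chr11:313975-314034, plus strand): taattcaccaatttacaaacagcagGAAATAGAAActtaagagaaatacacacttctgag
IFITM3 (chr11:320861-320920, minus strand): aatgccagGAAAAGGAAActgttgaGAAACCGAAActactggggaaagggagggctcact
ISG20 (chr15:88638922-88638981, plus strand): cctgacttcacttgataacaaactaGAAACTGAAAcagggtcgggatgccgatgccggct

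EPSTI1, DDX60 and IFITM3 carry the identical run GAAACCGAAA, while the first 2 of these genes had higher and the last had lower values after LPS. Among the genes with an unadjusted p under 0.05, the core was found in 6 of 6 with higher values and in 3 of the 7 with lower values that the table lists. Among those with a larger p it was found in 11 of 15. The lower genes without an entry were OAS2, TRIM22 and IFITM2. By gene, the core was in 71.4% of the 28 genes and in 4.38% of all genes of the table. A match describes these letters only, and no test of the counts was made.

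The arrays were alike in overall level, with medians from 6.42 to 6.47. By 18 probe sets for transcripts added at hybridisation they formed 2 array sets: set A (10.24 ± 0.045, SD, n = 3) held control 1, LPS 1 and LPS 2, and set B (10.57 ± 0.051, SD, n = 3) held controls 2 and 3 and LPS 3. Because the sets are unequal in the groups, differences within each set are given beside the pooled ones for the genes with an unadjusted p under 0.05, and a fit with array set as a further term is named where it changes a call. B cell markers were well measured, 9 of the 10 listed, at means between 8.33 and 13.02. The averages of those 9 ran from 10.39 to 10.48 on control arrays and from 10.21 to 10.33 on LPS arrays, with 7 of 9 below 0 and 5 at an unadjusted p under 0.05. None passed the adjusted limma test, while once array set was a term 2 passed lower, CD79A (adjusted p = 0.0103) and POU2AF1 (adjusted p = 0.0207). Of all genes at least 1 log2 unit above the median of all probe sets, as these 9 were, 42.8% lay below 0. At an unadjusted p under 0.05, 6.46% of genes that bright were lower. Markers of monocytes (7), T and NK cells (7) and plasmacytoid dendritic cells (5) lay at means of 5.92 to 6.69, near the array medians. In RNA from a whole culture, fewer cells that express a gene and less RNA per cell cannot be told apart.

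After LPS 1 of the 35 genes rose and 1 fell, where 0.389% of all 19775 genes passed the same limma test at an adjusted p under 0.05, 0.182% higher and 0.207% lower. IFI44 rose and TRIM22 fell. In 7 genes all LPS values lay above all control values and in 8 all lay below. Over all genes these shares were 7.95% and 7.8%. At an unadjusted p under 0.05, 6 genes were higher and 10 lower, with 4.97% and 4.59% over all genes. The median difference was -0.05, with 15 genes above 0 and 20 below. Over all genes the median was 0.0016. Leaving out 1 array at a time left 5 to 7 genes higher and 8 to 9 lower at that unadjusted p.

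**Figure D1:**
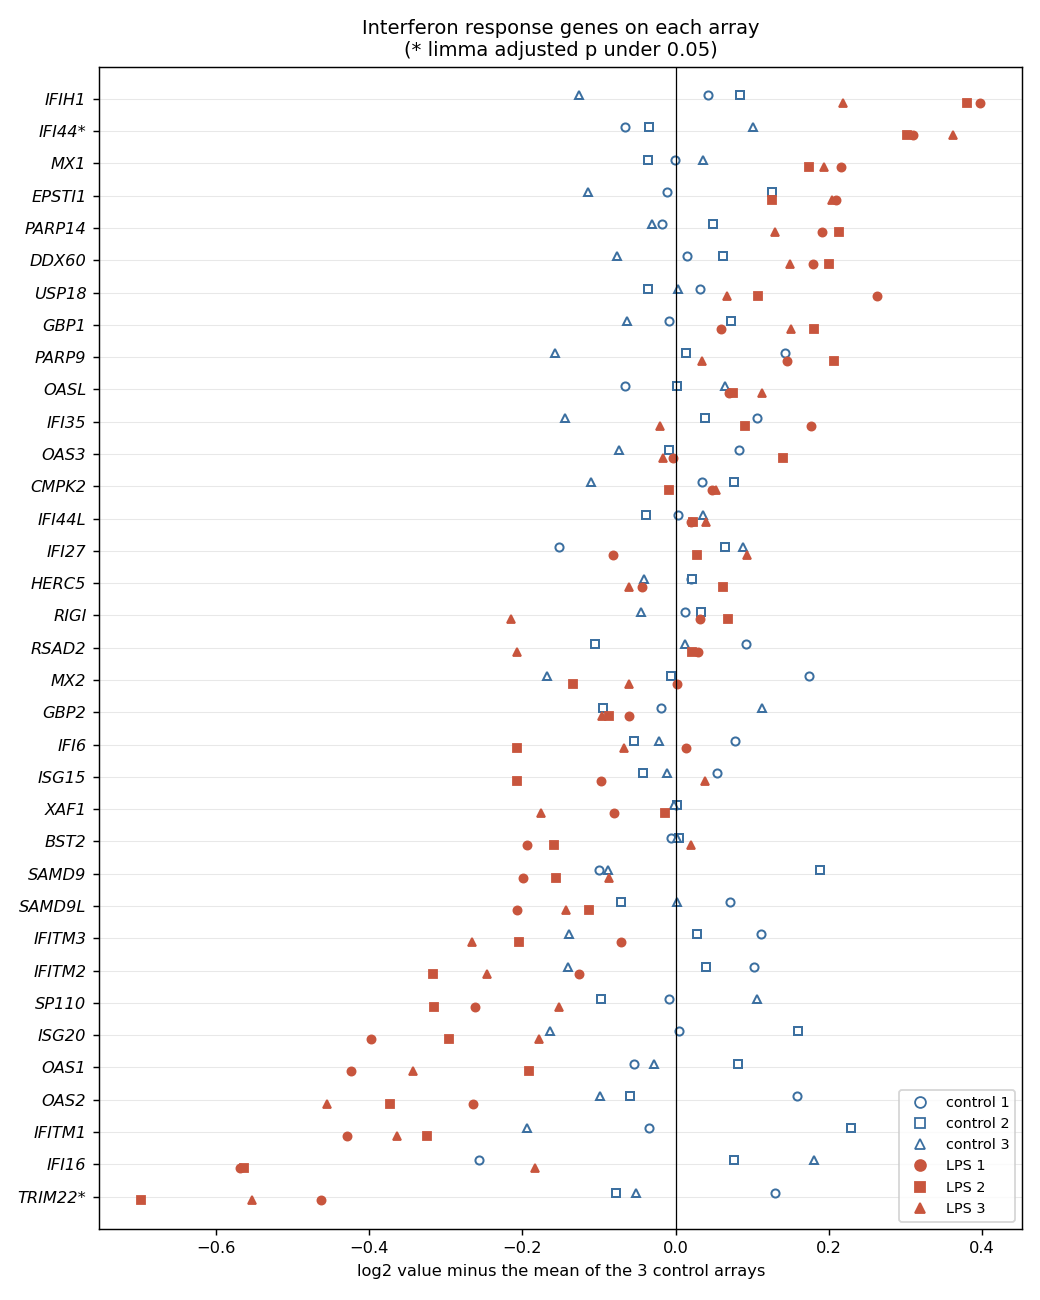
Log2 value of the 35 interferon response genes on each array, minus the gene's mean over the 3 control arrays (x axis), with genes ordered by their difference (y axis), open blue symbols for controls and filled red ones for LPS, shaped by replicate number. TRIM22 and IFI44, marked with an asterisk, passed the limma test, and their LPS values lie clear of their controls.

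TRIM22 encodes a ubiquitin ligase that restricts viral transcription and replication. Its 1 probe set read 9.95, 9.74 and 9.77 on control arrays 1 to 3. On LPS arrays 1 to 3 it read 9.36, 9.12 and 9.27. Each LPS value lay below each control value. TRIM22 fell by 0.57 on the log2 scale (SE 0.096, 95% interval -0.78 to -0.37, n = 3 per group, limma adjusted p = 0.0245), so that controls stood 1.49-fold above LPS cells. The difference was -0.71 (set A) and -0.49 (set B). This call depends on the arrays. It held when control 1 was dropped (adjusted p = 0.0265) and was lost on dropping control 2 (0.0671), control 3 (0.136), LPS 1 (0.0635), LPS 2 (0.201) or LPS 3 (0.0502). The difference lay between -0.63 and -0.51 in these fits.

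SP110, a nuclear body protein, was the other nuclear member. Its brightest probe set read 9.16, 9.07 and 9.27 in controls and 8.91, 8.85 and 9.02 after LPS. The groups did not overlap, but the difference of -0.24 did not pass (SE 0.088, adjusted p = 0.454). It was -0.28 (set A) and -0.16 (set B). The 4 further SP110 probe sets also lay below 0, at -0.31, -0.31, -0.15 and -0.09, and none passed. With the array set in the fit, 1 of those at -0.31 (adjusted p = 0.167) passed, at 0.0206. Its relative SP140, a nuclear body protein of lymphocytes, is not among the 36 genes and fell by 0.48 (SE 0.073, adjusted p = 0.0129), from 7.82, 7.82 and 7.89 in controls to 7.39, 7.25 and 7.44 after LPS, with -0.50 (set A) and -0.41 (set B).

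IFI44, a cytoplasmic protein induced by interferon, was the 1 gene that rose. Its values were 6.07, 6.10 and 6.24 on control arrays 1 to 3 and 6.45, 6.44 and 6.50 on LPS arrays 1 to 3. All LPS values exceeded all controls, and the LPS arrays lay close together. The rise was 0.33 on the log2 scale, or 1.25-fold (SE 0.058, interval 0.20 to 0.45, adjusted p = 0.0333), with 0.37 (set A) and 0.33 (set B). The control level lay below the array medians, where differences may be compressed. A second, dimmer IFI44 probe set gave 0.11 (adjusted p = 0.581), also with groups that did not overlap. IFI44 missed the threshold whichever array was dropped, with an adjusted p of 0.0567 for control 1, 0.176 for control 2, 0.0676 for control 3, 0.145 for LPS 1, 0.175 for LPS 2 and 0.0781 for LPS 3. Without an intensity trend in the variance it was 0.0609. IFI44L, its neighbour on chromosome 1 and a close relative, was at 0.03 (interval -0.07 to 0.12), with overlapping groups. The IFI44L probe set also lay below the array medians, on every array, so a difference may be missed.

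The sensors of nucleic acid pointed in both directions. IFIH1 (MDA5), a helicase that detects long double-stranded RNA, read 7.61, 7.65 and 7.44 in controls and 7.96, 7.95 and 7.79 after LPS. Every LPS array was above every control, with a difference of 0.33 (SE 0.081, adjusted p = 0.148), of 0.35 (set A) and 0.24 (set B). Its dimmer probe sets gave 0.03 and 0.01. DDX60, a helicase linked to the same pathway, read 5.91, 5.95 and 5.82 in controls and 6.07, 6.09 and 6.04 after LPS, a difference of 0.18 without overlap (adjusted p = 0.269), and of 0.17 (set A) and 0.16 (set B). Its 1 probe set lay below the array medians on every array, where differences may be compressed. RIGI, the sensor of RNA with a triphosphate end, showed no such difference. Its 3 probe sets lay between -0.043 and -0.038, with an interval for the brightest from -0.20 to 0.12.

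IFI16, a nuclear sensor of DNA, read 11.62, 11.96 and 12.06 in controls and 11.31, 11.32 and 11.70 after LPS. The lowest control lay below the highest LPS array. The difference was -0.44 (SE 0.13, adjusted p = 0.298). By the remaining probe sets it was -0.32 and -0.25. IFI16 also differed between the array sets, by 0.49 as set B minus set A over all arrays. Within the sets the LPS difference was -0.31 in each, and a fit with a term for array set gave the same value with an adjusted p of 0.0123.

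The oligoadenylate synthetases, which make the short adenylate chains that activate an RNA-degrading enzyme, divided within one gene cluster on chromosome 12. OAS2 read 8.17, 7.95 and 7.91 in controls and 7.74, 7.64 and 7.55 after LPS, a difference of -0.36 (SE 0.085, adjusted p = 0.13), or -0.48 (set A) and -0.38 (set B). OAS1 read 8.06, 8.20 and 8.09 in controls and 7.69, 7.93 and 7.78 after LPS, a difference of -0.32 (SE 0.081, adjusted p = 0.171), or -0.25 (set A) and -0.37 (set B). Neither gene's groups overlapped, and the second OAS1 probe set gave -0.34 while the further OAS2 probe sets gave -0.27 and -0.10. OAS3, which lies between them, was at 0.04 (interval -0.10 to 0.18), and OASL, a family member without that enzyme activity, at 0.09 (interval -0.04 to 0.21). With array set as a block OAS2 and OAS1 passed, with adjusted p of 0.00183 and 0.0488. The difference between OAS3 and its neighbours was not tested.

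**Figure D2:**
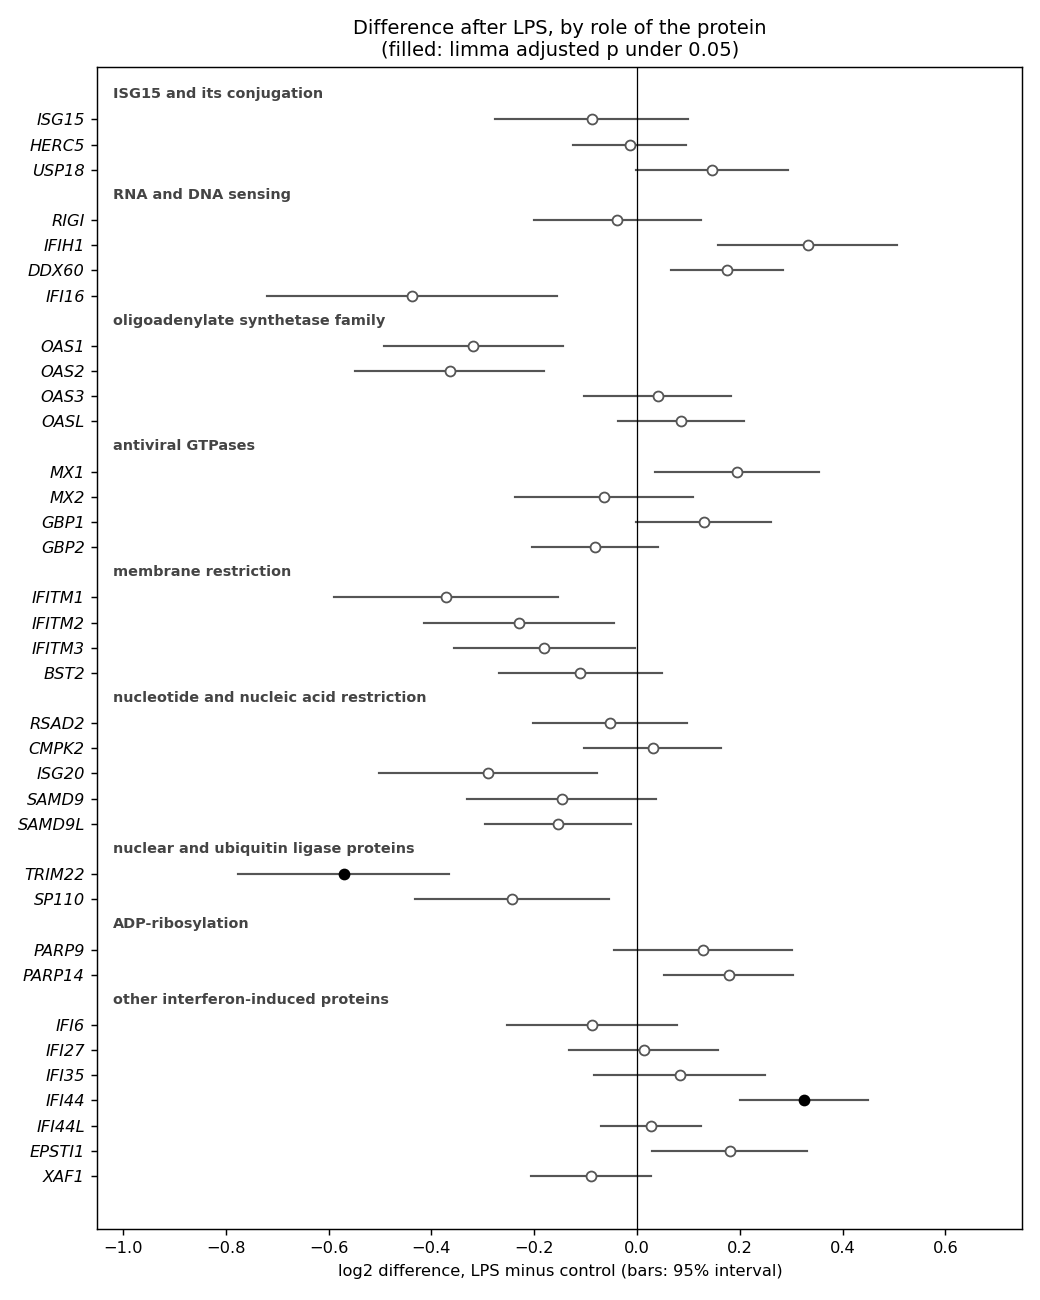
Log2 difference, LPS minus control (x axis), with its 95% interval for each of the 35 genes, grouped by the role of the protein (y axis). Filled points, TRIM22 at -0.57 and IFI44 at 0.33, passed the limma test. All 4 genes of membrane restriction lie below 0, where 42.8% of all genes as bright do, and the IFITM probe sets among them may share signal.

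The membrane proteins lay below 0 in 4 of 4 genes, with a median of -0.21, and 0 passed. Of all genes at least 1 log2 unit above the median of all probe sets, as these 4 were, 42.8% lay below 0. The IFITM proteins, which hinder the fusion of viruses with cell membranes, are neighbours on chromosome 11. IFITM1 read 8.81, 9.07 and 8.65 in controls and 8.41, 8.52 and 8.48 after LPS, without overlap, a difference of -0.37 (SE 0.10, adjusted p = 0.225). It was -0.34 (set A) and -0.38 (set B), and IFITM1 passed once array set was a term (adjusted p = 0.0485). IFITM2 read 8.32, 8.26 and 8.08 in controls and 8.10, 7.91 and 7.98 after LPS, a difference of -0.23 (adjusted p = 0.478), or -0.32 (set A) and -0.20 (set B). IFITM3 read 7.76, 7.68 and 7.51 in controls and 7.58, 7.45 and 7.39 after LPS, a difference of -0.18 (adjusted p = 0.608), or -0.25 (set A) and -0.21 (set B). In both, the lowest control was below the highest LPS array. These 3 genes are alike in sequence and each is represented by a probe set whose suffix marks possible cross-hybridisation, so their values may not be separate. BST2 (tetherin), which holds budding virus at the cell surface, was at -0.11, with -0.17 (set A) and 0.02 (set B).

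MX1, an antiviral GTPase that traps viral nucleocapsids, varied little within groups. Its values were 8.36, 8.32 and 8.39 in controls and 8.57, 8.53 and 8.55 after LPS. The groups stood apart, with a difference of 0.19 (SE 0.075, adjusted p = 0.501) that was 0.20 (set A) and 0.19 (set B). MX2, its neighbour on chromosome 21, was at -0.06 (interval -0.24 to 0.11). The guanylate-binding protein gene GBP1 was at 0.13 (adjusted p = 0.621). The 3 dimmer GBP1 probe sets were at 0.22, 0.13 and 0.02. GBP2, next to it, was at -0.08, at a level below the array medians.

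Genes acting on nucleotides and nucleic acid lay mostly below 0. ISG20, an exonuclease that degrades RNA, read 9.23, 9.38 and 9.06 in controls and 8.83, 8.93 and 9.05 after LPS. Control 3 and LPS 3 nearly met, and the groups did not overlap, with a difference of -0.29 (SE 0.099, adjusted p = 0.398), or -0.35 (set A) and -0.18 (set B). A further ISG20 probe set gave -0.34 (adjusted p = 0.155, or 0.0354 once array set was a term). SAMD9L, a growth-suppressing protein that restricts poxviruses, read 7.34, 7.20 and 7.27 in controls and 7.06, 7.16 and 7.13 after LPS, a difference of -0.15 without overlap (adjusted p = 0.577), or -0.23 (set A) and -0.11 (set B). Its neighbour SAMD9 was at -0.15 with overlapping groups. RSAD2 (viperin), which makes a chain-terminating nucleotide, and CMPK2, the kinase encoded beside it, are strongly induced in many interferon responses. Here they were at -0.05 and 0.03, with intervals from -0.20 to 0.10 and from -0.10 to 0.16, at levels near the array medians.

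ISG15, a ubiquitin-like protein attached to other proteins, was at -0.09 (interval -0.28 to 0.10), with -0.21 (set A) and 0.07 (set B). Its ligase HERC5 was at -0.01, at a level below the array medians. USP18, the protease that removes ISG15 and restrains the interferon receptor, was at 0.15 (adjusted p = 0.62), and its LPS values of 7.28, 7.13 and 7.09 all lay above its controls, 7.05, 6.98 and 7.02.

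PARP14, which adds ADP-ribose to proteins, read 6.60, 6.67 and 6.58 in controls and 6.81, 6.83 and 6.75 after LPS. These groups did not overlap, and the difference was 0.18 (SE 0.059, adjusted p = 0.364), or 0.22 (set A) and 0.12 (set B). Its dimmer probe set gave -0.02. PARP9, a relative, was at 0.13 with overlap. EPSTI1, an interferon-induced gene linked to the interaction of epithelium and stroma, read 6.75, 6.89 and 6.65 in controls and 6.97, 6.89 and 6.97 after LPS, a difference of 0.18 (adjusted p = 0.508), or 0.18 (set A) and 0.20 (set B). Control 2 and LPS 2 of EPSTI1 were level. IFI6 and IFI27, related proteins of the mitochondria and membranes, were at -0.09 and 0.01, IFI35 at 0.08 and the apoptosis factor XAF1 at -0.09. IFI27 lay below the array medians on every array. The XAF1 controls ran from 6.21 to 6.22 and lay above its LPS values, 6.14, 6.20 and 6.04. All of these lay below the array medians, and the difference did not pass (adjusted p = 0.74). The dimmer XAF1 probe sets were at -0.04 and -0.01 with overlapping groups.

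The sign of the difference tended to go with the level of the probe set. Of the 15 genes with a mean at least 1 log2 unit above the median of all probe sets, 13 lay below 0, with a median of -0.23. The exceptions were IFIH1 and MX1. Among all 7388 genes that bright, 42.8% lay below 0 and the median was 0.02. Of the 20 dimmer genes 13 lay above 0, with a median of 0.04. Levels of different probe sets are not amounts that can be compared, so this describes the probe sets. In the bright genes 9 were lower at an unadjusted p under 0.05, where 6.46% of all genes that bright were, and 2 were higher, against 9.54%. Of the 9 lower ones, all but OAS2 and ISG20 are represented by a probe set marked for possible cross-hybridisation. Those of IFITM1, IFITM2 and IFITM3 may share signal. B cell markers, all bright, had a median of -0.20, and their part in the result was not tested.

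**Figure D3:**
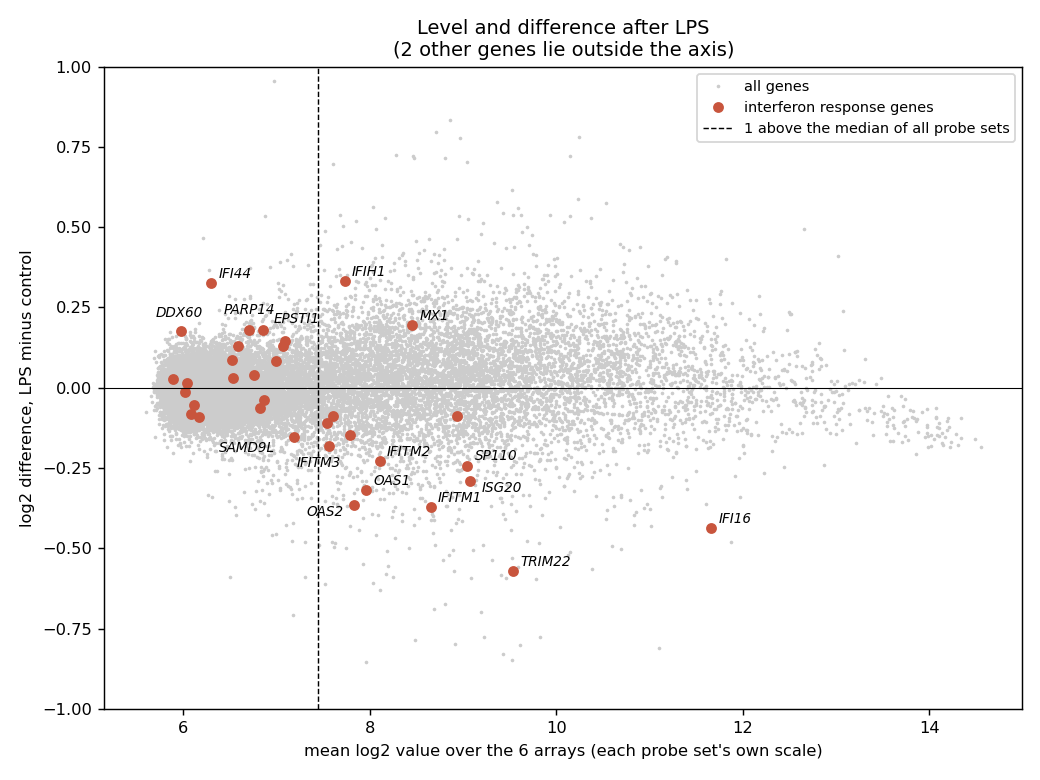
Log2 difference, LPS minus control (y axis), against the mean log2 value over the 6 arrays (x axis), for all genes (grey) and the 35 interferon response genes (red, named where the unadjusted p was under 0.05). Right of the dashed line, 1 log2 unit above the median of all probe sets, 13 of 15 red points lie below 0.

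Within the array sets, the 16 genes with an unadjusted p under 0.05 had the same sign in both. That sign is largely fixed by choosing them on the same arrays, and set A has 1 control and set B has 1 LPS array. Over all 35 genes the signs were the same in 29 (82.9%), and over all 19775 genes in 11161 (56.4%). The 29 include the 16 so chosen. In all genes at least 1 log2 unit above the median of all probe sets the share was 65.4%, and in the dimmer ones 51.1%. For the 35 genes these shares were 86.7% and 80%. The differences between shares were not tested. With array set as a block 1 gene was higher (IFI44) and 5 lower (TRIM22, OAS2, IFI16, OAS1 and IFITM1) at an adjusted p under 0.05, where 0.865% and 1.16% of all genes were. IFIH1 was then at 0.29 (adjusted p = 0.0537).

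**Figure D4:**
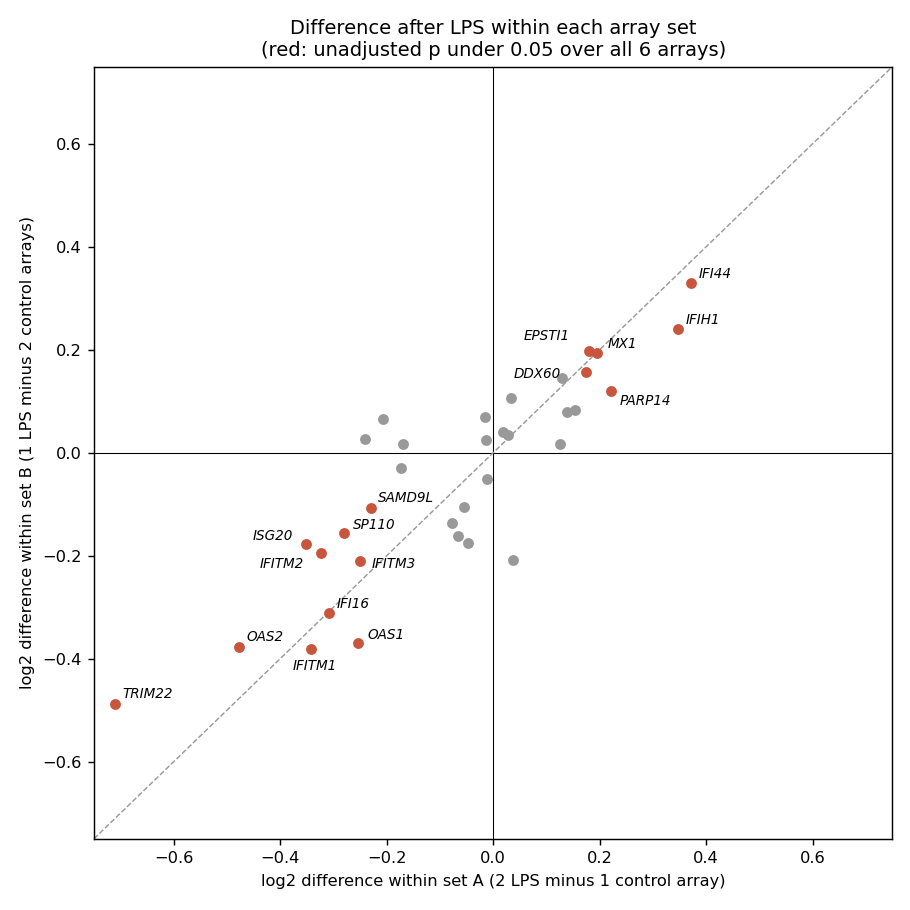
Log2 difference, LPS minus control, within set A (x axis, 2 LPS and 1 control array) and within set B (y axis, 1 LPS and 2 control arrays), for the 35 genes, with the 16 at an unadjusted p under 0.05 in red and the dashed line marking equal values. TRIM22 is lowest in both sets, at -0.71 and -0.49, and IFI44 highest, at 0.37 and 0.33.

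For 19 of the genes there was more than 1 probe set, 30 further ones in all, and none of these 30 passed. At an unadjusted p under 0.05, 2 were higher and 7 lower. By their brightest probe sets, 4.97% and 4.59% of all genes were. The 7 lower ones belong to IFI16, OAS1, OAS2, ISG20 and SP110, which were already lower at that p by their brightest probe set. IFI16, OAS1, OAS2, ISG20 and SP110 lay below 0 by every probe set, and so did RIGI, RSAD2, SAMD9, SAMD9L, XAF1 and GBP2. IFI44, IFIH1, EPSTI1, GBP1, OASL and PARP9 lay above 0 by every probe set. Some of these differences were very small, such as -0.006 for RSAD2 and 0.007 for PARP9 by their dimmer probe sets. Every IFI16 and SP110 probe set is marked for possible cross-hybridisation. How often the probe sets of a gene share a sign over all genes was not counted. IFIH1, PARP14, EPSTI1 and SAMD9L reached that p by their brightest probe set alone. Of the 35 genes 14, TRIM22 and IFI44 among them, are represented by a probe set marked for possible cross-hybridisation by its suffix (_x_at or _s_at). Without such probe sets 26 genes were left, 0 passed, 6 were higher and 4 lower at an unadjusted p under 0.05, and the median was -0.0034. TRIM22 then had no probe set. With such probe sets kept, the shares over all genes at that unadjusted p were 4.97% higher and 4.59% lower.

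**Figure D5:**
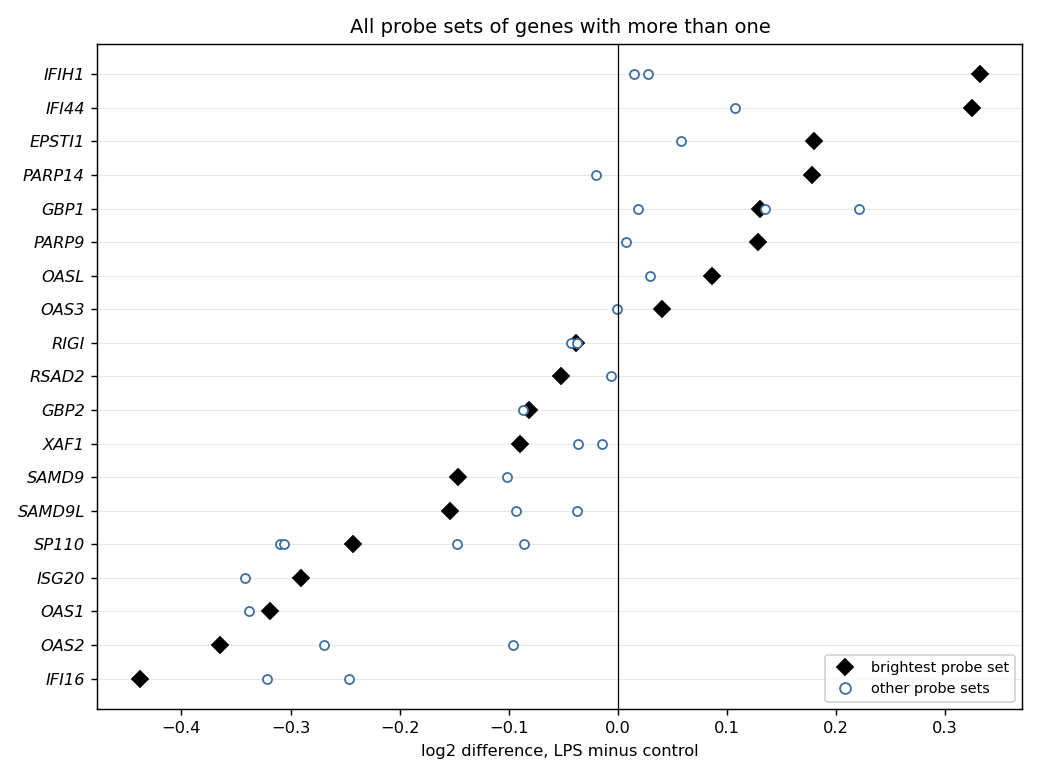
Log2 difference, LPS minus control (x axis), for every probe set of the 19 genes with more than 1 (y axis), with the brightest as a black diamond and the others as open circles. The 3 IFI16 probe sets lie at -0.44, -0.32 and -0.25, while the dimmer IFIH1 probe sets lie at 0.03 and 0.01 beside 0.33.

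Other genes of the pathway were followed from lists. Of 18 interferon genes measured, 0 passed and 0 had an unadjusted p under 0.05 by limma. Their differences ran from -0.08 (IFNA8) to 0.07 (IFNA21), and 17 of the 18 had means below the median of all probe sets. Interferon alpha genes are near-identical, so their probe sets may share signal. Of 15 receptor and signalling genes 0 passed. At an unadjusted p under 0.05, 2 were higher and 2 lower, where 4.97% and 4.59% of all genes were. SOCS1, an inhibitor of JAK kinases, read 7.40, 7.48 and 7.52 in controls and 7.24, 7.20 and 7.04 after LPS, a difference of -0.31 (adjusted p = 0.133), or -0.18 (set A) and -0.46 (set B). SOCS1 passed once array set was a term (adjusted p = 0.0234). JAK2, a kinase bound to cytokine receptors, was at 0.29 (adjusted p = 0.355), or 0.19 (set A) and 0.23 (set B).

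Of 16 genes that lead to interferon production 1 rose and 0 fell. IKBKE, a kinase that activates IRF3 and IRF7, read 8.29, 8.06 and 7.94 in controls and 8.81, 8.87 and 8.78 after LPS. It rose by 0.72 (SE 0.093, adjusted p = 0.00735), with all LPS values above all controls, and by 0.55 (set A) and 0.78 (set B). STING1, the adaptor of DNA sensing, was at -0.12 (adjusted p = 0.681) and IRF3 at -0.15 (adjusted p = 0.705). Of 53 further interferon-induced genes 0 rose and 1, SP140, fell. The median of these 53 was 0.0015. At an unadjusted p under 0.05, 6 were higher and 5 lower, where 4.97% and 4.59% of all genes were. TAP1, a peptide transporter subunit, was at 0.36 (adjusted p = 0.104, or 0.025 once array set was a term), with 0.26 (set A) and 0.41 (set B). TRANK1 was at -0.40 (adjusted p = 0.143, or 0.00044 in that second fit), with -0.47 (set A) and -0.51 (set B).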

How the data were processed

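The deposited table of the authors holds 1 log2 value per probe set on each of 6 arrays (54675 probe sets, 5.46 to 14.81). The log2 base is inferred from that range, and for background correction, summary and normalisation the methods are not given in the sources used here. Without 62 Affymetrix controls, 54613 probe sets were tested. Gene symbols came from the platform annotation, checked by gene identifier against RefSeq (GRCh38.p14): 41091 probe sets had 1 symbol, 1801 several and 11721 none, and 54 with 1 symbol did not match. Group was the single term of a model fitted in R 4.3.3 with limma 3.58.1 (two-sided, variances moderated along an intensity trend, Benjamini-Hochberg over all tested probe sets, threshold 0.05, intervals of 95%). The steps were tested on simulated data. The arrays give no read depth. Their number limits the precision, and the median SE of a difference was 0.063. Array sets were parted at the widest gap in the added hybridisation controls, 0.22, with 0.081 the next widest. The genes, lists and tests were chosen with earlier results of these data known. Values on every array are given for genes with an unadjusted p under 0.05. Of each further list, genes that passed and the 2 others with the smallest p are named. Values by array of SP140, SOCS1, IKBKE, USP18 and XAF1 were added after they were seen. Alternatives were other blocks, normalisations, filters, variance priors, array weights, thresholds and probe set choices, and leaving out each array.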

Additional observations from a re-analysis of the deposited data

How the results depend on the processing

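Of 35 genes 2 passed in the fit as reported. The count was 6 with a replicate block and 6 with an array set block. It was 1 with probe sets above the median level, 1 with those at least 1 above it and 1 without an intensity trend. It was 0 at an adjusted p under 0.01, 0 without probe sets marked for possible cross-hybridisation, and 0 to 1 with an array left out. It was 3 with quantile normalisation, where OAS2 also passed (adjusted p = 0.0314), and 3 with array weights, where IFIH1 also passed (adjusted p = 0.0397). It was 2 with median centring, a robust prior, the mean over probe sets or an adjusted p under 0.10. The 2 level filters left 27 and 15 genes. Both removed the IFI44 probe set before the test, so there IFI44 was not retested. The count of probe sets called, 144, became 498 with the replicate block, 734 with the array set block, 292 with quantile normalisation and 309 with array weights. It became 265 and 47 at thresholds of 0.10 and 0.01, and 82 without probe sets marked for possible cross-hybridisation. With an array left out it ran from 10 (without LPS 2) to 374 (without control 1). It was not counted where a gene's probe sets were averaged. The genes' median, -0.05, was -0.087 and -0.23 under the filters on dim probe sets. It was -0.0034 without probe sets marked for possible cross-hybridisation. With array weights RIGI turned to 0.0023 and IFI27 to -0.030. Over the fits with an array left out the sign also turned in genes near 0: HERC5 ran from -0.052 to 0.0091, RIGI from -0.092 to 0.050, RSAD2 from -0.10 to 0.025, IFI27 from -0.063 to 0.061, MX2 from -0.15 to 0.023, OAS3 from -0.010 to 0.081 and CMPK2 from -0.025 to 0.068. The cause was not tested.

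Whether replicate numbers pair the samples was not settled. Deviations from the group means correlated at 0.44, -0.04 and 0.23 for same-numbered arrays. For differently numbered arrays they ran from -0.47 to 0.32. With 3 arrays per group these deviations are tied to each other, so the correlations cannot decide it. With the replicate block IFIH1, IFI16, OAS1 and OAS2 also passed, with adjusted p of 0.0285, 0.0313, 0.0411 and 0.0184. Probe sets near the array medians limit what can be seen of the dimmer genes.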
